A study of Rattus norvegicus with 8 samples.

Results

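Glycolytic enzyme genes, 10 in number, were followed in sorted testis cells of young and aged rats: Pgk2, Ldhc and Gapdhs, the germ-cell isoforms, and Pgk1, Ldha, Ldhb, Gapdh, Aldoa, Aldoc and Pfkm, the somatic isoforms. They were chosen by name, as every non-control probe whose accession matched one of these symbols in the rat RefSeq gene table. The 10 genes had 13 probes of 30367 on the array, and all 10 were among the 10236 named genes tested. The samples were CD9-positive cells isolated by fluorescence-activated sorting from testes of Sprague-Dawley rats, 4 samples from young rats (4 months of age) and 4 from aged rats (21 months of age). Rats of both ages carried a transgene that expresses green fluorescent protein in germ cells, and the labels name neither its promoter nor any treatment. The labels do not say whether samples of one age came from separate animals or from pools, so every p-value rests on the spread among the 8 samples, part of which may be technical.

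Glycolysis turns glucose into pyruvate, and lactate dehydrogenase interconverts pyruvate and lactate. Germ cells replace several of these enzymes by isoforms of their own in meiosis and afterwards: Pgk2 is an autosomal copy of the X-linked Pgk1, whose chromosome is silenced in meiosis, Ldhc encodes the testis lactate dehydrogenase subunit, and Gapdhs encodes the sperm form of glyceraldehyde-3-phosphate dehydrogenase. In spermatids and sperm several glycolytic enzymes are held to the fibrous sheath of the flagellum, where they supply ATP for motility.

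Levels are given as the log2 of an array's background-subtracted signal minus the 75th percentile of that array, so that 0 is a signal equal to that percentile. A level of one probe cannot be set against that of another, because probes differ in how well they bind. Each array held 62976 spots, its 75th percentile lay between 326 and 524 intensity units, and 63.0% to 72.0% of its probes were well above background. No spot was saturated, and all 13 probes of the 10 genes were well above background on all 8 arrays. By the file headers, all young arrays shared a row of the slide and all aged arrays the other row, and the effects of row and age cannot be told apart. Young replicate 1 and aged replicate 2 had low values of several of the 10 genes, and results are also given without them. Cd9 itself had a log2 level of −1.30 in young and −1.46 in aged samples (adjusted p = 0.492, limma), and 13 of 16 spermatogonial markers were measured. RNA typical of later germ cells was present as well, with Prm1 at 7.30 and 6.64 and Tnp1 at 7.40 and 6.86, both of which encode chromatin proteins made in spermatids.

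None of the 10 genes passed an adjusted p of 0.05 (limma, Benjamini-Hochberg over all 10236 genes), where 0.655% of all genes did so, 0.156% with aged samples lower. At an unadjusted p under 0.05 there were 7 of the 10, against 31.4% of all genes. Of the 10, 9 had a lower mean in aged samples, a direction shared by 36.6% of all genes, whose median log2 difference was 0.11. The 3 germ-cell isoforms had differences of −0.94 to −1.02, Ldha had −0.94, and the other somatic isoforms lay between −0.48 and 0.28. Groups did not overlap for Aldoc and Pfkm, lower in all aged samples. Groups failed to overlap in 14.3% of all genes and in 4.12% with aged samples lower.

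The 250 bases upstream of the annotated start of the 4 genes with the largest differences are printed here because their signals moved together across the 8 arrays, as described below. Other genes shared that pattern. They are RefSeq sequences of assembly GRCr8, 5′ to 3′ on the strand of the gene, and capitals mark matches to 4 short motifs on either strand: TGACG (part of a cAMP response element), ACGTG (the core of a hypoxia response element), GGGCGG (a GC box) and CCAAT. The windows are chr9:27976663-27976912 (plus strand) for Pgk2, chr1:106522745-106522994 (plus strand) for Ldhc, chr1:95121056-95121305 (minus strand) for Gapdhs and chr1:106507842-106508091 (plus strand) for Ldha.
Pgk2: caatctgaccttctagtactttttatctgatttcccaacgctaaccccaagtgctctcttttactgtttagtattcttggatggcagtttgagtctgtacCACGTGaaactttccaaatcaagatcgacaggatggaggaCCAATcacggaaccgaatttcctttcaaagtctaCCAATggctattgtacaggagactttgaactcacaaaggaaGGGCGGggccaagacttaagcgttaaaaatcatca
Ldhc: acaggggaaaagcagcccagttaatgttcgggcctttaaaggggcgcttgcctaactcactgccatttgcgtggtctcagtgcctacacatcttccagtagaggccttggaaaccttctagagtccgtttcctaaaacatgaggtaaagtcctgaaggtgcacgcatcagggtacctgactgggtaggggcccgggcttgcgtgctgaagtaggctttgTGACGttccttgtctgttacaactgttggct
Gapdhs: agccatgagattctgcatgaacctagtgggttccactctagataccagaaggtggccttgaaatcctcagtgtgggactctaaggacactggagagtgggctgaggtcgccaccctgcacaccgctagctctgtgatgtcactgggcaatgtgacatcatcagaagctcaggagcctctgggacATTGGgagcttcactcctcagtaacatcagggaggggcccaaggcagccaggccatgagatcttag
Ldha: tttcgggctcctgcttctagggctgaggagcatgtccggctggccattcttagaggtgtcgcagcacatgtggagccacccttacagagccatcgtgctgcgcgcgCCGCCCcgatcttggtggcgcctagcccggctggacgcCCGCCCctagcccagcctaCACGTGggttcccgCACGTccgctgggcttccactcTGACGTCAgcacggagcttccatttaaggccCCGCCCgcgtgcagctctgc

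No motif of the 4 occurred in all 4 windows. Pgk2 held 2 CCAAT boxes, 1 GC box, and 2 ACGTG matches that overlap on opposite strands. Ldhc held 1 match, to TGACG, and Gapdhs held 1, to CCAAT. Ldha held 3 GC boxes, 3 ACGTG matches of which 2 overlap on opposite strands, and 2 overlapping TGACG matches. Of 33469 RefSeq promoter windows of the same length, 18.2% held TGACG, 16.6% ACGTG, 30.5% GGGCGG and 34% CCAAT. A match is a description of the letters only. Of the 10 genes, 9 had a window in the promoter table, which lacked Pgk1. Ldha and Ldhc lie on the same strand of chromosome 1 with 1 annotated gene, a long non-coding RNA, between them.

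**Figure D1:**
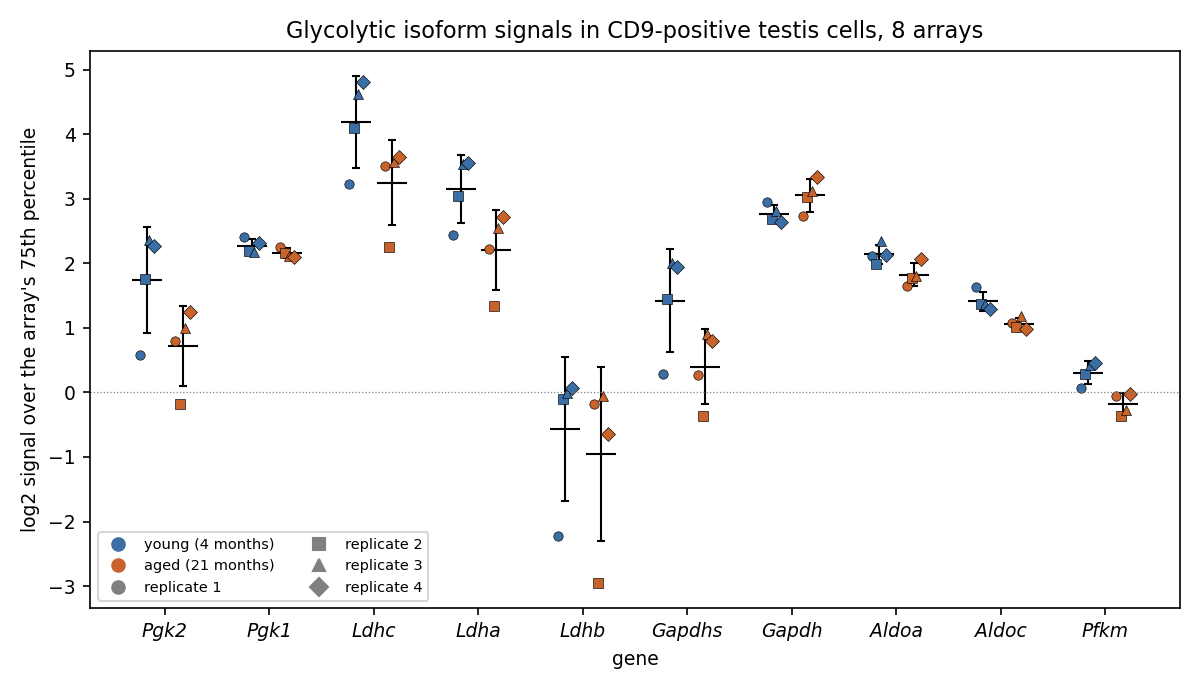
Log2 level over each array's 75th percentile for the 10 glycolytic genes, one point per array (shape shows the replicate), young in blue and aged in orange, with horizontal lines at the mean and bars of 1 SD (n = 4). Pgk2, Ldhc, Gapdhs and Ldha spread over more than 2 log2 units with overlapping groups, whereas Pgk1 spans 0.31 over all 8 arrays.

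Phosphoglycerate kinase makes ATP from 1,3-bisphosphoglycerate. Pgk2 had log2 levels of 0.58, 1.76, 2.37 and 2.26 in young replicates 1 to 4 and 0.80, −0.17, 0.99 and 1.25 in aged replicates 1 to 4. In young samples, 3 of 4 lay above every aged sample, while young replicate 1 lay among the aged samples, so the groups overlapped. The means were 1.74 ± 0.82 and 0.72 ± 0.62 (SD, n = 4 each), a log2 difference of −1.02 ± 0.43 (SE, 95% interval −1.99 to −0.06, adjusted p = 0.140, limma). In linear terms the aged mean was 2.03-fold lower. The somatic Pgk1 read 2.40, 2.20, 2.18 and 2.32 in young and 2.26, 2.17, 2.12 and 2.09 in aged samples. Its 8 values lay within 0.31 of each other, and the log2 difference was −0.11 ± 0.10 (adjusted p = 0.445, limma).

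Among the lactate dehydrogenases, Ldhc had log2 levels of 3.23, 4.10, 4.63 and 4.81 in young samples and 3.51, 2.26, 3.57 and 3.65 in aged samples. Young replicate 1 was again the lowest young sample, below 3 of the 4 aged samples, and aged replicate 2 was the lowest of all. The means of 4.19 ± 0.71 and 3.25 ± 0.66 (SD, n = 4 each) gave a log2 difference of −0.94 ± 0.40 (SE, adjusted p = 0.149, limma). Ldha, the muscle-type subunit of somatic tissues, read 2.44, 3.05, 3.54 and 3.55 in young and 2.22, 1.33, 2.54 and 2.72 in aged samples. Its order over the arrays resembled that of Ldhc, and its log2 difference was also −0.94 (± 0.34, adjusted p = 0.111, limma). Ldhb, the heart-type subunit, read −2.23, −0.10, −0.01 and 0.07 in young and −0.18, −2.94, −0.05 and −0.65 in aged samples. 1 sample of each age was more than 2 log2 units below most others, and the difference of −0.39 ± 0.71 was smaller than its error (adjusted p = 0.730, limma). Without aged replicate 2 it was 0.28.

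Glyceraldehyde-3-phosphate dehydrogenase is the step that yields NADH. Gapdhs read 0.29, 1.45, 2.003 and 1.95 in young and 0.27, −0.37, 0.90 and 0.80 in aged samples. As for Pgk2, young replicate 1 lay within the aged range and the other young samples above it. The means were 1.42 ± 0.79 and 0.40 ± 0.58 (SD, n = 4 each), with a log2 difference of −1.02 ± 0.41 (SE, adjusted p = 0.132, limma). Gapdh read 2.95, 2.68, 2.80 and 2.64 in young and 2.73, 3.02, 3.12 and 3.34 in aged samples, the 1 member whose mean was higher in aged samples. The difference was 0.28 ± 0.15 (adjusted p = 0.208, limma), and the other Gapdh probes gave 0.23 and 0.21. With spike-in scaling, which sets the median of all genes at −0.35, the Gapdh difference was −0.17.

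Aldolase splits fructose 1,6-bisphosphate, and phosphofructokinase, the committed step, makes it. Aldoa read 2.11, 1.98, 2.35 and 2.13 in young and 1.66, 1.77, 1.81 and 2.06 in aged samples, and only the highest aged sample reached into the young range. Its log2 difference was −0.31 ± 0.13 (adjusted p = 0.134, limma). Aldoc read 1.63, 1.37, 1.36 and 1.29 in young and 1.07, 1.02, 1.18 and 0.98 in aged samples, without overlap (−0.35 ± 0.11, adjusted p = 0.0890, limma). A dimmer Aldoc probe gave −0.34, with overlap. Pfkm, the muscle-type phosphofructokinase, read 0.06, 0.29, 0.43 and 0.45 in young and −0.05, −0.37, −0.27 and −0.02 in aged samples. Every aged sample was below every young sample (−0.48 ± 0.13, adjusted p = 0.0712, limma), although young replicate 1 and aged replicate 4 were close.

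Whether the germ-cell isoforms differed more than their somatic paralogues was tested on the within-array difference of each pair, which scaling an array by one factor cannot move (exact two-sided permutation test over the 8 arrays, Benjamini-Hochberg over 4 pairs). The smallest possible p was 0.0286, and an adjusted p under 0.05 needed at least 3 of the 4 pairs at that value, since 1 pair alone there adjusts to 0.114. Gapdhs minus Gapdh was −2.66, −1.23, −0.80 and −0.69 in young and −2.46, −3.39, −2.22 and −2.54 in aged samples. Again young replicate 1 alone lay within the aged range, and the difference between ages was −1.30 ± 0.52 (SE, exact p = 0.114, adjusted p = 0.286). Pgk2 minus Pgk1 was −1.82, −0.44, 0.18 and −0.06 in young and −1.46, −2.34, −1.13 and −0.85 in aged samples, a difference of −0.91 ± 0.55 (exact p = 0.143, adjusted p = 0.286). Ldhc minus Ldhb, at 5.46, 4.20, 4.64 and 4.74 in young and 3.69, 5.20, 3.62 and 4.30 in aged samples, differed by −0.56 ± 0.45 (exact p = 0.257, adjusted p = 0.343). None of these 3 pairs passed the test, which does not show that the 2 genes of a pair changed equally. Ldhc minus Ldha was 0.79, 1.05, 1.09 and 1.26 in young and 1.29, 0.93, 1.03 and 0.93 in aged samples. This difference between ages was −0.003 ± 0.13 (exact p = 1), and its sign turned when single arrays were left out.

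**Figure D2:**
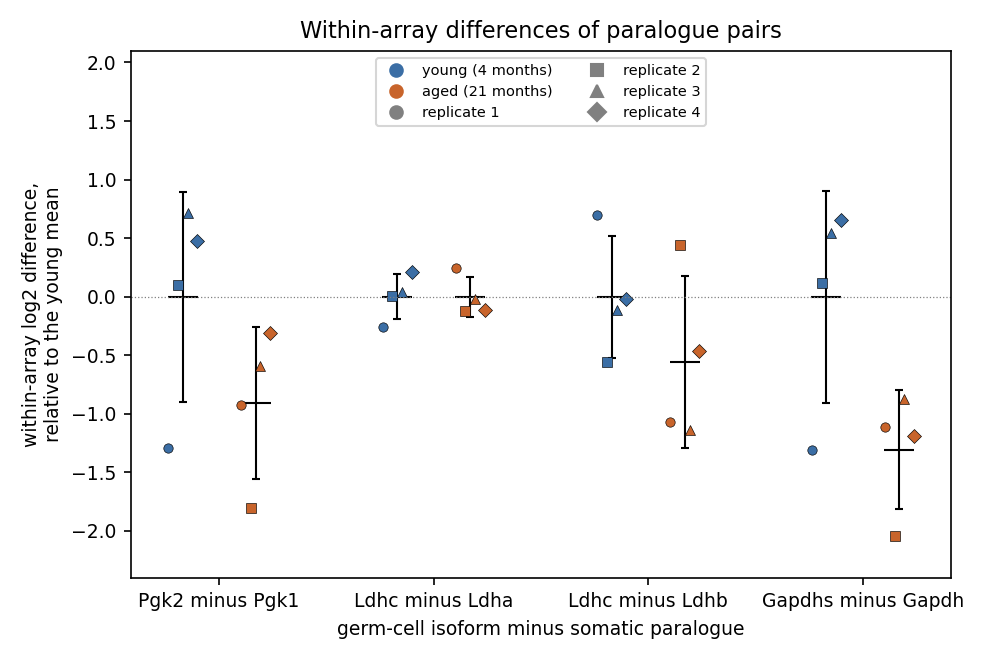
Within-array log2 difference between each germ-cell isoform and a somatic paralogue, shown relative to the mean of the young arrays, one point per array, young in blue and aged in orange, with lines at the mean and bars of 1 SD (n = 4). Gapdhs minus Gapdh and Pgk2 minus Pgk1 have groups that overlap through young replicate 1 alone, and the points of Ldhc minus Ldha are closest together.

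Over the 8 arrays, Pgk2, Ldhc, Gapdhs and Ldha moved together more closely than Pgk2 did with Pgk1, Gapdhs with Gapdh or Ldhc with Ldhb. Pgk2 itself spanned 2.54 log2 units, Ldhc 2.55, Gapdhs 2.37 and Ldha 2.22. The within-array difference of Pgk2 and Gapdhs spanned 0.43, that of Pgk2 and Ldhc 0.45, that of Ldhc and Ldha 0.50 and that of Pgk2 and Ldha 0.68. By contrast, the difference spanned 2.53 for Pgk2 and Pgk1, 2.69 for Gapdhs and Gapdh, and 1.84 for Ldhc and Ldhb. As a description over the 8 arrays, the Pearson r of the log2 level with that of Pgk2 was 0.98 for Ldha, 0.90 for Pfkm, 0.80 for Ldhb, 0.70 for Aldoa, 0.30 for Aldoc, 0.01 for Pgk1 and −0.45 for Gapdh. Among the somatic isoforms Ldha and Pfkm thus had patterns like that of Pgk2, Pfkm over a smaller range of 0.82. Ldhb was low mainly on young replicate 1 and aged replicate 2, and its difference from Pgk2 within arrays spanned 1.83. These spans are descriptions over 8 arrays that share their scaling, and no test was made of them. Aged replicate 2 was the lowest array for Pgk2, Ldhc, Ldha, Ldhb, Gapdhs and Pfkm.

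**Figure D3:**
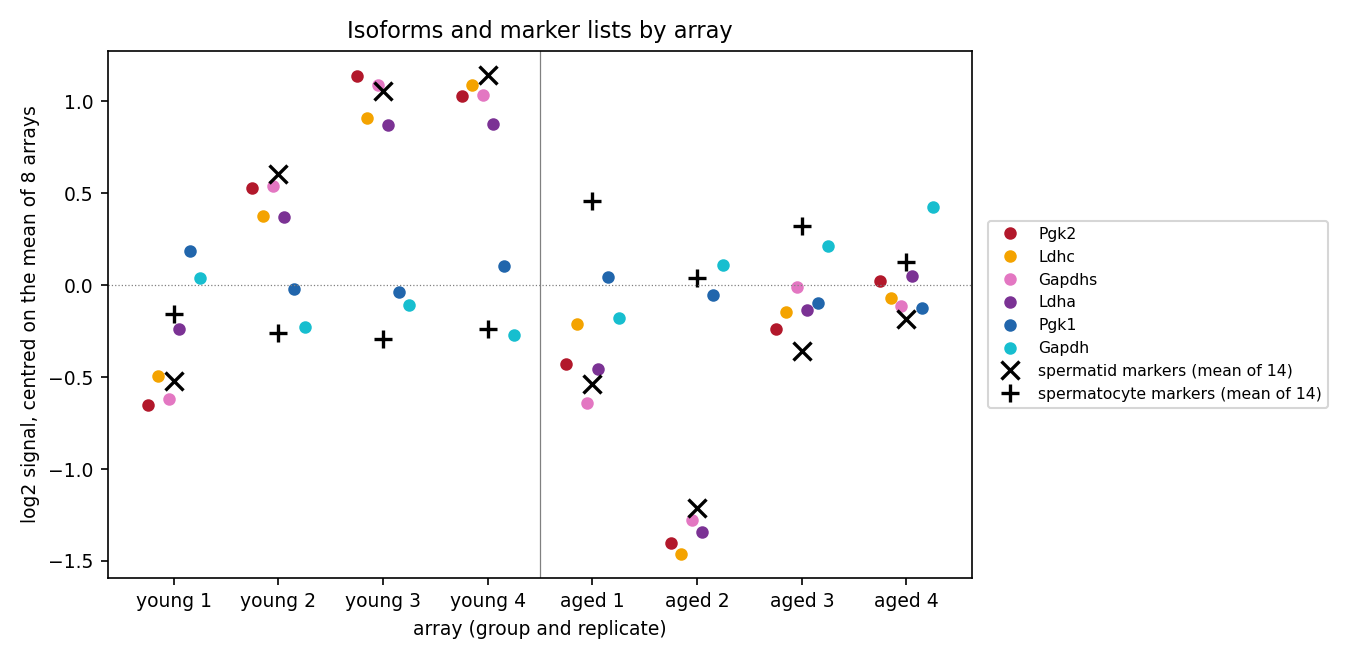
Log2 level of 6 glycolytic genes (coloured points) on each of the 8 arrays, centred on the mean of each gene, with the mean of the 14 spermatid markers (crosses) and the 14 spermatocyte markers (plus signs). Pgk2, Ldhc, Gapdhs, Ldha and the spermatid markers are low on young replicate 1 and lowest on aged replicate 2, while Pgk1 stays near 0. Stromal markers, not shown, were also low on these arrays (−0.65 and −1.38).

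For 7 of the 10 genes (all but Aldoa, Aldoc and Pfkm), the genes most like them in pattern were taken as the 5 with the highest Pearson r of the log2 levels over the 8 arrays, among 10233 other genes, as a description. Pgk2 was most like Apool2, Fam187b, Hk1, Tpi1l1 and Fam161a, with r of 0.997 for each. Its r was lower with Gapdhs (0.988), Ldhc (0.985) and Ldha (0.980), so their shared pattern was not particular to these members. Hk1 encodes hexokinase, the first enzyme of glycolysis, and its difference from Ldha within arrays spanned 0.47. Ldhc was nearest to Asrgl1, Riiad1, Tsacc, Tsnaxip1 and MGC93861 (r of 0.994 to 0.998), and Gapdhs to Ppp1r2l1, Septin12, Dyrk1b, Prss21 and Aqp11 (0.996 to 0.998). For Ldha the list was Trim69, Serpinb6b, Rsph9, Tekt1 and Spmap2 (0.992 to 0.995), of which Rsph9 encodes a radial spoke protein and Tekt1 a tektin of the flagellar axoneme. Pgk1 was nearest to Plin2, Ror2, Ybx1, Cfap97 and Cebpb, at a lower r of 0.929 to 0.965. Ldhb was nearest to Ctsk, Aldh1a1, Spock2, Sfxn3 and Vcam1 (0.991 to 0.996), and Gapdh to Mad1l1, Tmem147, Mettl3, Anapc5 and Neurl4 (0.980 to 0.988).

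Markers of some other cell types also had lower means in aged samples, a direction shared by 36.6% of all genes. All 14 measured spermatid markers had lower means in aged samples (median log2 difference −0.95), and none passed the test. Their summed level was 8.48 to 9.80 in young and 8.03 to 9.07 in aged samples. A summed level is the log2 of the added linear levels of a list, so its brightest probes weigh most. Centred on each gene, the spermatid markers averaged −0.52, 0.60, 1.06 and 1.15 in young replicates 1 to 4. In aged replicates 1 to 4 they averaged −0.54, −1.21, −0.36 and −0.18. The order of young arrays low to high was that of Ldhc, and the stromal and Leydig lists shared it. Stromal and macrophage markers were lowest on aged replicate 2 as well (−1.38 and −1.40). All 10 measured stromal markers were also lower (median −1.37), with a summed level of 1.57 to 3.64 in young and 0.82 to 1.90 in aged samples, as were all 9 macrophage markers (median −0.75, 3.06 to 4.77 and 2.54 to 4.11). Some dim markers were kept through the young arrays alone. Catsper3 was above background on 1 of 4 aged arrays, Col3a1 and Cd14 on 2, and Acrv1 and Adgre1 on 3. Genes kept that way tend to be lower in aged samples, so these counts are not free of the filter. Most spermatocyte markers went the other way. Of 14, 11 had higher means and 6 of them passed the test (Sycp3, Meiob, Msh4, Dmc1, Tex101 and Syce1), against 0.655% of all genes. Ccna1 (−1.54, adjusted p = 0.0527, limma), Clgn (−0.50) and Hspa2 (−0.39) were lower, Ccna1 in all aged samples. The summed level of the list was 5.28 to 5.37 in young and 5.85 to 6.07 in aged samples. Sycp3, of the synaptonemal complex, rose by 1.19 on the log2 scale (adjusted p = 0.0465, limma). Of 13 measured spermatogonial markers, 10 had lower and 3 higher means in aged samples (median −0.16), and none passed the test. Gfra1 had −0.89, Upp1 −0.49 and Ret −0.41, whereas Epcam had 0.46. Few markers of other cells were measured: 5 of 12 Sertoli (1 passed, higher), 5 of 8 Leydig, 4 of 8 endothelial and 4 of 7 red-cell genes. The part of cell make-up in the values of the 10 genes was not tested. In bulk samples such as these, fewer cells of a type and less RNA per cell cannot be told apart.

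Which of the 10 genes passed the test depended on young replicate 1. Without it 3776 genes passed the test (36.9% of all, 14.6% lower and 22.3% higher in aged samples), and 6 of the 10 genes were among the lower ones. They were Pgk2 (−1.41, adjusted p = 0.0156), Gapdhs (−1.40, adjusted p = 0.0132), Ldhc (−1.26, adjusted p = 0.0283), Ldha (−1.18, adjusted p = 0.0265), Pfkm (−0.57, adjusted p = 0.0104) and Aldoc (−0.28, adjusted p = 0.0412), all by limma. Groups also did not overlap for the same 6, where 16.5% of all genes had every aged sample lower. Pgk1, Ldhb, Gapdh and Aldoa were not called. Leaving out aged replicate 2 as well, an alternative chosen after seeing the data, kept Pgk2 (−1.12, adjusted p = 0.00527), Gapdhs (−1.14, adjusted p = 0.00723), Ldhc (−0.93, adjusted p = 0.00926), Ldha (−0.89, adjusted p = 0.0123) and Pfkm (−0.50, adjusted p = 0.0180) past the threshold, with 27.4% of all genes called and 13.9% called lower. Groups then did not overlap for 6 of the 10, against 17% of all genes with aged samples lower. Leaving out any other single array called 0 or 1 genes and none of the 10. Without young replicate 1, the difference between ages was −1.74 for Gapdhs minus Gapdh (exact p = 0.0286) and −1.34 for Pgk2 minus Pgk1 (exact p = 0.0571), with no overlap between ages in either pair. Both adjusted p-values were 0.114, and with 3 against 4 arrays as well an adjusted p under 0.05 needed 3 of the 4 pairs at the smallest p of 0.0286. Each single array was left out by plan, but young replicate 1 was singled out because its values of several of these genes were low. It was the lowest young sample for Pgk2, Gapdhs, Ldhc, Ldha and Pfkm, so leaving it out had to widen their differences. The values without it, here and in the lists below, are therefore no separate support for a difference. Nothing in the labels sets young replicate 1 apart, and it was kept in every value not marked otherwise. Its mean centred level of spermatogonial markers was the highest of the 8 arrays (0.23). Among young arrays it was lowest for spermatid (−0.52), stromal (−0.65), macrophage (−0.50), Sertoli (−0.70), Leydig (−0.74) and red-cell (−0.49) markers. The reason was not tested.

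The rest of the pathway was read from lists of genes, all against the median of 0.11 over all genes. Of 18 other glycolytic enzymes measured of 20 listed, none passed the test, 11 were lower and 7 higher (median −0.16). Pgam2, the muscle phosphoglycerate mutase, had −1.09 ± 0.40 (adjusted p = 0.113) and Hk1 −0.79 ± 0.30 (adjusted p = 0.120), whereas Eno3, an enolase, had 0.79 ± 0.26 (adjusted p = 0.0978) and Adpgk, an ADP-dependent glucokinase, 0.36 ± 0.11 (adjusted p = 0.0871, limma). Without young replicate 1, 6 of the 18 were called lower (Pfkl, Pgam2, Hk1, Tpi1, Pkm and Pfkp) and 1 higher (Adpgk), where 36.9% of all genes were called in either direction. Among 9 measured regulators, Pfkfb1, which sets fructose 2,6-bisphosphate, came nearest to the threshold at 0.79 ± 0.15 (adjusted p = 0.0504, limma), higher in all aged samples. None of the 9 passed, and their median was 0.04. Without young replicate 1, 1 of the 9 was called higher (Pfkfb1) and 2 were called lower (Pfkfb4 and Pfkfb2).

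Transporters and the entry of pyruvate into mitochondria also gave no call. Among 9 measured transporters 6 were lower (median −0.10). Bsg, the chaperone of lactate transporters, had 0.40 ± 0.10 (adjusted p = 0.0633), higher in all aged samples, and Slc16a7, a lactate transporter, had −2.45 ± 0.64 (adjusted p = 0.0668, limma), with 3 of 4 aged arrays above background. Mpc1, of the mitochondrial pyruvate carrier, had 0.50 ± 0.13 (adjusted p = 0.0622, limma), and the 11 measured genes of that list had a median of −0.04. Among 7 measured germ-cell forms of other energy genes, 5 were lower and 2 higher (median −0.37). Gk2, a glycerol kinase, had −1.44 ± 0.42 (adjusted p = 0.0786) and Ldhal6b −1.22 ± 0.45 (adjusted p = 0.114, limma). The higher ones were Pdha2, the testis pyruvate dehydrogenase subunit, at 0.40 ± 0.14 (adjusted p = 0.105) and Cyct, the testis cytochrome c, at 0.41 ± 0.18 (adjusted p = 0.154, limma). Germ-cell forms therefore did not all lie on one side. Without young replicate 1, Bsg, Slc16a8, Mpc1, Pdha2 and Cyct were called higher and Slc16a3, Slc16a7, Gk2 and Ldhal6b lower. That made 4 calls among 9 transporters, 1 among 11 genes of pyruvate entry and 4 among 7 germ-cell forms, against the same 36.9% of all genes.

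Genes of the fibrous sheath and flagellum, the structures that hold the sperm glycolytic enzymes, had lower means in aged samples in 11 of 11 measured cases (median −1.19), and none passed the test. Tekt2 had −1.97 ± 0.45 and Tekt4 −1.75 ± 0.39 (adjusted p = 0.0561 for both, limma), each lower in all aged samples. Cabyr, a calcium-binding sheath protein, had −1.22 and Akap4, the main sheath scaffold, −1.19. Without young replicate 1 all 11 were called lower, as were all 14 spermatid and all 10 stromal markers, where 14.6% of all genes were called lower. That array was low in these lists, so leaving it out widened their differences. The mean centred level of the 11 flagellum genes was lowest on aged replicate 2, at −1.33. It was −0.48 on young replicate 1 against 0.56 to 1.22 on the other young arrays.

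**Figure D4:**
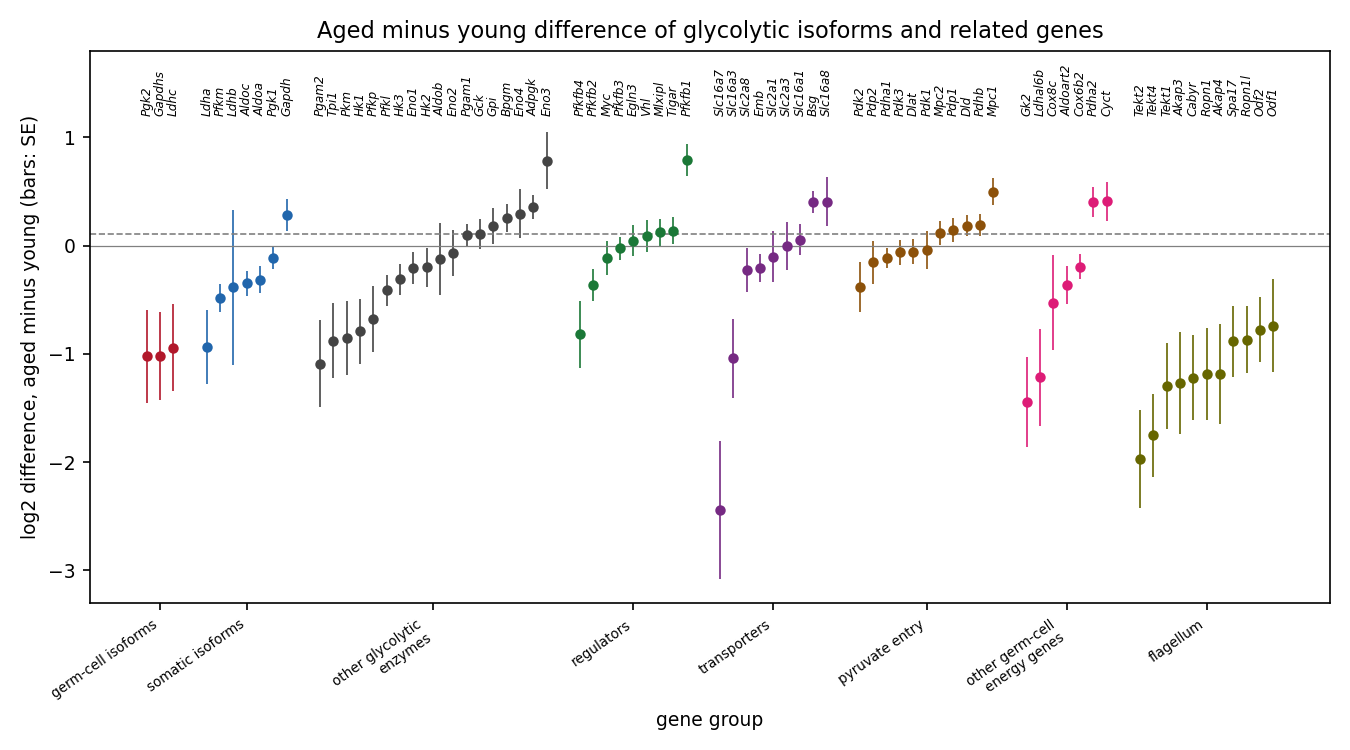
Log2 difference, aged minus young, for the members and the other listed genes, one point per gene with bars of 1 SE, grouped by list, and a dashed line at the median of all genes (0.11). The 11 flagellum genes lie below 0 (median −1.19) near Pgk2, Ldhc and Gapdhs, and the other glycolytic enzymes lie on both sides of 0.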

How the data were processed

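RNA of 8 sorted samples was measured on one-colour Agilent arrays. Per the labels, 18 ng of total RNA was amplified and labelled with Cy3. The authors deposited processed signals as linear intensity values, background-subtracted and spatially detrended by Feature Extraction 10.7.3.1 per the file headers (12.5 per the submitters' processing notes), with no scaling between arrays. Deposited 0 or 1 columns mark spots above background, saturated or outlying, and raw intensity of spot and surroundings was deposited too. The authors' deposited log2 table, centred per probe, had column medians of 0.09, −0.07, −0.14 and −0.06 (young) and −0.02, 0.05, 0.07 and −0.003 (aged), and its differences between arrays followed the values used here with slopes of 0.999 to 1.002 across probes. Probes were designed on rn4. The probe sequences were not used here, so signal from near-identical copies cannot be separated.

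Control and outlier spots were left out, log2 was taken, each array's 75th percentile subtracted, and spots of a probe averaged. Accessions were matched to RefSeq names of GRCr8: 17998 probes matched 15154 genes. A probe was kept when at least 0.5 of its spots were above background on every array of a group, and the brightest probe stood for a gene. Ages were compared with limma 3.58.1 (R 4.3.3; two-sided moderated test by eBayes with 9.15 degrees of freedom), with Benjamini-Hochberg adjustment over 10236 genes and calls at 0.05. Paralogue pairs used exact permutation tests. The fit was tested on simulated data. All 10 genes, up to 4 genes of smallest p from each other list and the 5 genes most like a member were named, besides chosen examples (Hk1, Akap4, Prm1, Tnp1, Cd9) picked after their values were seen. The members and the lists were chosen with earlier results of these data known. The number of arrays limits the precision.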

Additional observations from a re-analysis of the deposited data

Results flagged for a closer look

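In 28 groups of 4 arrays examined, 2 held a sample far from the others, and chance flags about 1 group in 20. Ldhb was lowest in young replicate 1, at −2.23 against −0.10 for the next young sample. Ldhc was lowest in aged replicate 2, at 2.26 against 3.51 for the next aged sample.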

How the results depend on the processing

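The count of genes passing the test moved with most choices, and the cause was not tested. It was 67 as reported (51 higher, 16 lower in aged samples), 27 with quantile scaling (24, 3), 1330 with median scaling (1067, 263), 958 with spike-in scaling (6, 952), 633 with normexp background (365, 268), 122 with normexp and quantile scaling (102, 20), 270 with an intensity trend and robust prior (206, 64) and 1674 at an adjusted p under 0.1 (946, 728). It was 0 without scaling (1389 at an unadjusted p under 0.05), without a filter on dim probes (3339), with unnamed probes (4929) and with the replicate number as a block (3231), all by limma. Leaving out 1 array gave 0 to 3776, and leaving out young replicate 1 and aged replicate 2 together, chosen after seeing the data, gave 2804. Median scaling put the median gene at 0.26 and spike-in scaling at −0.35, against 0.11. Replicate numbers were not taken to pair the samples. Deviations of same-numbered samples correlated at −0.26, −0.12, 0.44 and 0.35, which cannot show whether they were handled together.

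Pgk2, Ldhc, Gapdhs, Ldha, Aldoa, Aldoc and Pfkm kept a negative sign under all 22 alternatives, Pgk2 from −1.48 to −0.73. The sign turned for Pgk1 with median scaling (0.040), Ldhb without aged replicate 2 (0.28) and Gapdh with spike-in scaling (−0.17). Besides the calls without arrays, spike-in scaling called Ldha (−1.39), Aldoc (−0.80) and Pfkm (−0.94), and normexp called Pfkm (−0.48). Spike-in scaling rested on 4 probes, whose mean log2 signal was 10.68 and 10.87 on aged replicates 3 and 4. On the other arrays it was 9.96 to 10.14. Ldhc minus Ldha ranged from −0.088 to 0.068 with 1 array left out, and the other 3 pairs kept a negative sign under 21 alternatives. Pair p-values say little about stability: 3 against 3 arrays and the block allow none under 0.1 and 0.125, and otherwise 3 of 4 pairs must reach the smallest p.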
